A study of Mus musculus with 230 samples.

Results

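Gene expression in the nucleus accumbens (NAc) was compared 1 h after a cocaine injection between mice with a history of cocaine intake and mice that received cocaine for the first time. The members were the NAc libraries labelled with a cocaine challenge at 30 d of withdrawal, which are 12 of the 230 libraries of the series. Mice of the CC group (7 libraries) had self-administered cocaine and mice of the SC group (5 libraries) had self-administered saline. Both groups were male C57BL/6J mice that spent 30 d in withdrawal, received a single intraperitoneal cocaine injection in the setting of their earlier sessions and were killed 1 h later. The saline-injected mice with the same histories served beside them: CS after cocaine self-administration (5 libraries) and SS after saline self-administration (6 libraries). The last NAc groups, C24 after cocaine (8 libraries) and S24 after saline (8 libraries), were taken at 24 h of withdrawal, with no challenge injection labelled. Doses, ages and the number of sessions were not given in the sources used here. Each library is whole NAc tissue, so a change in the number of cells of a type and a change in RNA per cell cannot be told apart.

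The nucleus accumbens is the ventral part of the striatum, and most of its neurons are GABA-releasing projection neurons. Direct pathway neurons carry the D1 dopamine receptor (Drd1) with substance P and dynorphin (Tac1, Pdyn), and indirect pathway neurons carry the D2 receptor (Drd2) with an adenosine receptor and enkephalin (Adora2a, Penk). Cocaine blocks the dopamine transporter on axons arriving from the midbrain, and the dopamine that accumulates acts through D1 receptors on immediate early genes such as Fos, whose transcripts peak soon after a stimulus. The effector genes that these factors accompany, such as Arc and Bdnf, and feedback genes such as the dual-specificity phosphatases follow the same stimulus, and a cocaine history is known to alter how they respond to a later injection.

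Total counts ran from 20096557 to 26920573 per CC library and from 23243373 to 28284847 per SC library. Levels below are CPM, the count as a share of the library's TMM-scaled total, and no level is divided by gene length. The striatal identity of the tissue held in every library: over the 12 libraries Drd1 ran from 179.9 to 291.6, Adora2a from 151.1 to 290.5 and Penk from 1008 to 1867 in unscaled CPM. CC NAc-074 had the lowest Drd1, Drd2, Adora2a and Penk of the 12. Of 44 immediate early and effector genes it was lowest in 16, SC NAc-105 was lowest in 10 and SC NAc-083 was highest in 10. Some markers of cell types outside the striatum were detected in all 12 libraries and others were at 0 in part of them, and their source was not tested. The 8 marker genes of cortical glutamate neurons summed to 33.6 to 130 CPM in CC and to 44.5 to 314 CPM in SC, with the highest sum in NAc-083. Nptx1 alone had 29.1 to 85.3 unscaled CPM over the 12 libraries, a large part of the lowest sums. The 12 choroid plexus and ependyma markers summed to 51.6 to 70.4 CPM in CC and to 48.0 to 70.0 CPM in SC (all sums unscaled), and Folr1, a choroid plexus marker, was at 0 in 6 of the 12 libraries and at 0.360 CPM at most.

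Between CC and SC almost no gene separated beyond the spread of the libraries. Of 16935 genes tested in edgeR's quasi-likelihood fit of all 39 NAc libraries, 0 were higher in CC (0% of genes) and 2 were lower (0.0118%) at an adjusted p of 0.05. The 2 genes were Gm11410, a processed pseudogene, and Slc6a3, which encodes the dopamine transporter, and each rested on 1 or 2 SC libraries. The next gene had an adjusted p of 0.467. At an unadjusted p under 0.05 there were 612 genes higher in CC (3.61%) and 632 lower (3.73%). The CC libraries lay wholly above the SC libraries in 40 genes (0.236%) and wholly below in 41 (0.242%). The median log2 fold change over all genes was 0.0041. For the 10128 genes above 10 CPM the median half-width of the 95% interval was 0.20 on the log2 scale, and 89.7% of them had an interval lying within 0.5 of 0. DESeq2 called 0 genes higher and 1 lower, and limma voom called none in either direction, with 1361 genes at an unadjusted p under 0.05.

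Gm11410 lies on chromosome 4, 80003989 to 80005131 (mm10, plus strand), in a single exon. It had 0 to 0.996 CPM in CC libraries, with a median of 0.349. In SC libraries it had 14.9 CPM in NAc-083, 38.1 in NAc-113, 0.501 in NAc-125, 0.106 in NAc-161 and 0.0416 in NAc-105. Thus 2 SC libraries stood far above the other 3, which lay within the range of CC. The log2 fold change was -4.76 (SE 0.81, adjusted p = 0.0158). Without the libraries in which Gm20594 exceeded 1 CPM, which are these same 2, the fold change turned to 0.82 and no gene was called in either direction, with 1921 genes at an unadjusted p under 0.05. DESeq2 still called Gm11410 on all libraries (-4.79, adjusted p = 0.00208). The call was also lost without NAc-113 (-3.31, adjusted p = 0.401) and without any single CC library other than NAc-053 (adjusted p = 0.0725 to 0.0777), with fold changes of -4.75 to -4.56.

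Gm11410 and Gm20594 carry stretches that are identical to parts of different mitochondrial genes, mt-Cytb and mt-Rnr2. Whether these stretches account for the levels of Gm11410 and Gm20594 in the libraries with Gm20594 above 1 CPM was not tested. Gm20594 is annotated as a short protein-coding gene on chromosome 6 (79817916 to 79818364, plus strand). Capitals mark the longest run shared with a mitochondrial transcript, with flanking bases in lower case (GENCODE M21 transcripts, GRCm38, plus strand, 5′ to 3′). The Gm11410 stretch spans chr4:80004229-80004305 and shares 47 bases with mt-Cytb, the cytochrome b gene, and the Gm20594 stretch spans chr6:79818268-79818362 and shares 65 bases with mt-Rnr2, the large ribosomal RNA gene.
Gm11410: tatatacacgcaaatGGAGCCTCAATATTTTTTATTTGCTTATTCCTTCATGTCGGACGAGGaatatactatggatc
Gm20594: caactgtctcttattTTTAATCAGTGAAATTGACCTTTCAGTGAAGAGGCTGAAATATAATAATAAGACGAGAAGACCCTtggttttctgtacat

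Reads from such stretches cannot be assigned to the nuclear copy or to the mitochondrial gene with certainty, and all 37 genes of the mitochondrial chromosome are listed at 0 in every NAc library. Gm20594 had 2.14 unscaled CPM in SC NAc-083, 1.64 in SC NAc-113 and 0 in the other 37 NAc libraries. Of 19 genes outside the mitochondrial chromosome that share at least 1 run of 31 bases with a mitochondrial transcript, 3 were higher in both of these libraries than in all 37 others. The third was Gm11408, which shares a run of 39 bases with mt-Nd6 and had 13.4 and 21.9 unscaled CPM in NAc-083 and NAc-113, against 1.08 to 7.47 in the others. The most abundant copies did not separate them: Gm28437, identical to mt-Co3 over its length, had 11160 and 12260 unscaled CPM there, against 5445 to 16940 elsewhere. These genes were picked after their values were seen. Across the series Gm20594 exceeded 1 CPM in 21 of 230 libraries, of which 19 were SC (of 37 SC libraries, in 6 regions) and 2 were CS (of 30), and in none of the 37 CC or 39 SS libraries. Gm11410 was at least 7.59 unscaled CPM in those 21 libraries and at most 0.992 in the remaining ones. What differed in the preparation or processing of these libraries was not tested. Atp5j2, a subunit of ATP synthase encoded in the nucleus, had 28.4 to 44.5 CPM in CC, and in SC 86.5 CPM in NAc-083, 78.1 in NAc-113 and 36.0 to 43.8 in the other 3 (log2 fold change -0.62, SE 0.23, adjusted p = 0.642). CS NAc-014, with Gm20594 at 0, had 76.7 CPM of Atp5j2.

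**Figure D1:**
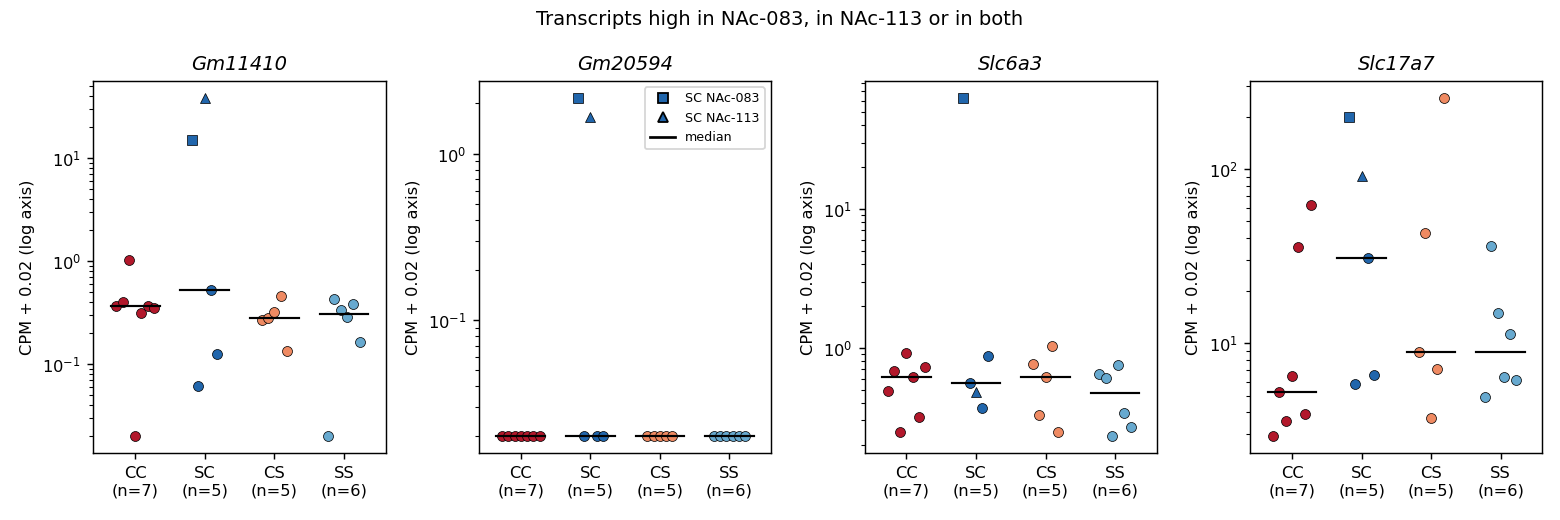
Level in each NAc library 1 h after injection of Gm11410, Gm20594, Slc6a3 and Slc17a7 (CPM plus 0.02 on log axes, Gm20594 unscaled; points are libraries, lines are medians, groups CC, SC, CS and SS). NAc-083 and NAc-113 are the only points with Gm20594 above 0 and with Gm11410 above 1 CPM, and NAc-083 alone has 62.9 CPM of Slc6a3.

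Slc6a3 (chromosome 13, 73536747 to 73578672) is transcribed in midbrain dopamine neurons, whose axons and not cell bodies reach the NAc. Its level in CC ran from 0.226 to 0.893 CPM, with a median of 0.594. In SC it was 62.9 CPM in NAc-083, 0.540 in NAc-105, 0.460 in NAc-113, 0.347 in NAc-125 and 0.848 in NAc-161. A single SC library stood apart, and the other 4 overlapped with CC throughout. The log2 fold change was -4.55 (SE 0.83, adjusted p = 0.0250), and without NAc-083 it was -0.0067 with an adjusted p of 0.998. Leaving out any single CC library also ended the call (adjusted p = 0.0727 to 0.121), with fold changes of -4.69 to -4.42. Other midbrain genes were high in the same library: Th, the rate-limiting enzyme of dopamine synthesis, had 36.0 CPM there against 11.3 to 16.003 CPM in the other SC libraries, and Slc18a2, the vesicular monoamine transporter, had 27.8 against 3.20 to 6.74 CPM. The 7 markers of midbrain dopamine neurons summed to 33.8 to 42.5 unscaled CPM in CC libraries, and to 160.8 in SC NAc-083 and 28.2 at the lowest in SC. Foxa1, a factor that defines these neurons, was at 0 in 11 of the 12 libraries and at 0.976 unscaled CPM in the remaining one.

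Markers of cortical glutamate neurons, which are not striatal cells, varied widely between libraries. Slc17a7, the vesicular glutamate transporter of cortical neurons, had 2.89 to 62.2 CPM in CC with a median of 5.24. In SC it had 198 CPM in NAc-083, 91.3 in NAc-113, 30.6 in NAc-125, 6.50 in NAc-161 and 5.82 in NAc-105. Its log2 fold change was -1.95 (SE 1.32, adjusted p = 0.741), and the groups overlapped. The 8 markers had a median log2 fold change of -0.99, with 0 of 8 at an unadjusted p under 0.05, and 0.38 without NAc-083 and NAc-113. After a saline injection the median was 1.77, where CS NAc-151 had 256 CPM of Slc17a7, against 4.88 to 35.9 CPM in SS. Bdnf, the neurotrophin gene that cortical neurons supply to the striatum, was high in the same libraries. It had 0.299 to 2.43 CPM in CC, and 5.79 CPM in NAc-083, 2.76 in NAc-113 and 0.374 to 0.963 in the other SC libraries (log2 fold change -0.91, SE 0.72, adjusted p = 0.771), and 6.88 CPM in CS NAc-151. The part of the cortical markers in the level of Bdnf was not tested.

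Levels of immediate early genes overlapped between the cocaine-injected groups. Fos, the founding member of the AP-1 factors, had 27.2 to 44.4 CPM in CC with a median of 34.4, and 40.8, 36.8, 34.2, 31.8 and 24.9 CPM in the 5 SC libraries. The ranges coincided, and the log2 fold change was 0.07 (SE 0.28, adjusted p = 0.969), with small negative values in 3 of the alternatives run. In the saline-injected groups Fos had 28.2, 31.5, 35.3, 47.2 and 54.6 CPM in CS and 17.2 to 29.3 CPM in SS with a median of 24.8. Of the CS libraries 4 of 5 thus lay above all SS libraries, with a log2 fold change of 0.74 (SE 0.29), which did not pass (adjusted p = 0.994). The difference between the cocaine-injected and the saline-injected contrast was -0.67 (SE 0.40, adjusted p = 0.999).

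Npas4, an activity-dependent factor specific to neurons, had 21.3 to 51.0 CPM in CC with a median of 36.4, and 64.6, 54.8, 42.5, 41.2 and 31.6 CPM in SC. Its log2 fold change was -0.35 (SE 0.24, adjusted p = 0.745), and the lowest value was CC NAc-074. Egr3, a zinc finger factor downstream of neuronal activity, had 47.3 to 75.1 CPM in CC and 90.2, 73.6, 72.8, 69.7 and 68.3 CPM in SC. Of the CC libraries 6 of 7 lay below all SC libraries, and NAc-053 was the exception. Egr3 was the one member of the list at an unadjusted p under 0.05 (log2 fold change -0.32, SE 0.15, adjusted p = 0.675). A count of 1 in 24 members is near the 3.73% of all genes that were lower at that level. Over the 24 immediate early transcription factors 18 values were negative and 6 positive, with a median of -0.11 against 0.0041 for all genes tested, and 0 members passed. The median stayed between -0.16 and -0.05 over the alternatives in which list medians were computed. After a saline injection, with no library in common, 22 of 24 values were positive with a median of 0.35, and 0 of 16935 genes passed in CS against SS (0% of genes, with 461 at an unadjusted p under 0.05). Against saline-injected mice of the same history, the list median was -0.11 for CC against CS and 0.34 for SC against SS. Overlapping levels in CC and SC therefore do not show an equal response to the injection.

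The effector genes spread in the same way. Arc, which encodes a protein of active synapses, had 86.7 to 160.7 CPM in CC with a median of 139, and 196, 184, 159, 141 and 116 CPM in SC (log2 fold change -0.26, SE 0.30, adjusted p = 0.847). Of the CC values 6 of 7 fell within the SC range, and the lowest was NAc-074. Nr4a1, an orphan nuclear receptor induced by activity, had 98.5 to 157 CPM in CC and 114 to 179 CPM in SC (-0.12, SE 0.24). Inhba, an activin subunit, had 2.72 to 5.21 CPM in CC and 3.89 to 6.20 CPM in SC (-0.54, SE 0.29, adjusted p = 0.690). The 20 effectors had a median of -0.06, and 0 of 20 reached an unadjusted p under 0.05. Their median was 0.01 without NAc-083, 0.05 without NAc-083 and NAc-113, 0.00015 after the GC correction and -0.10 without NAc-053. The 13 feedback genes had a median of -0.05. Dusp1, a phosphatase that inactivates MAP kinases, had 27.9 to 42.6 CPM in CC and 30.8 to 44.1 CPM in SC (-0.06, SE 0.16, adjusted p = 0.948).

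**Figure D2:**
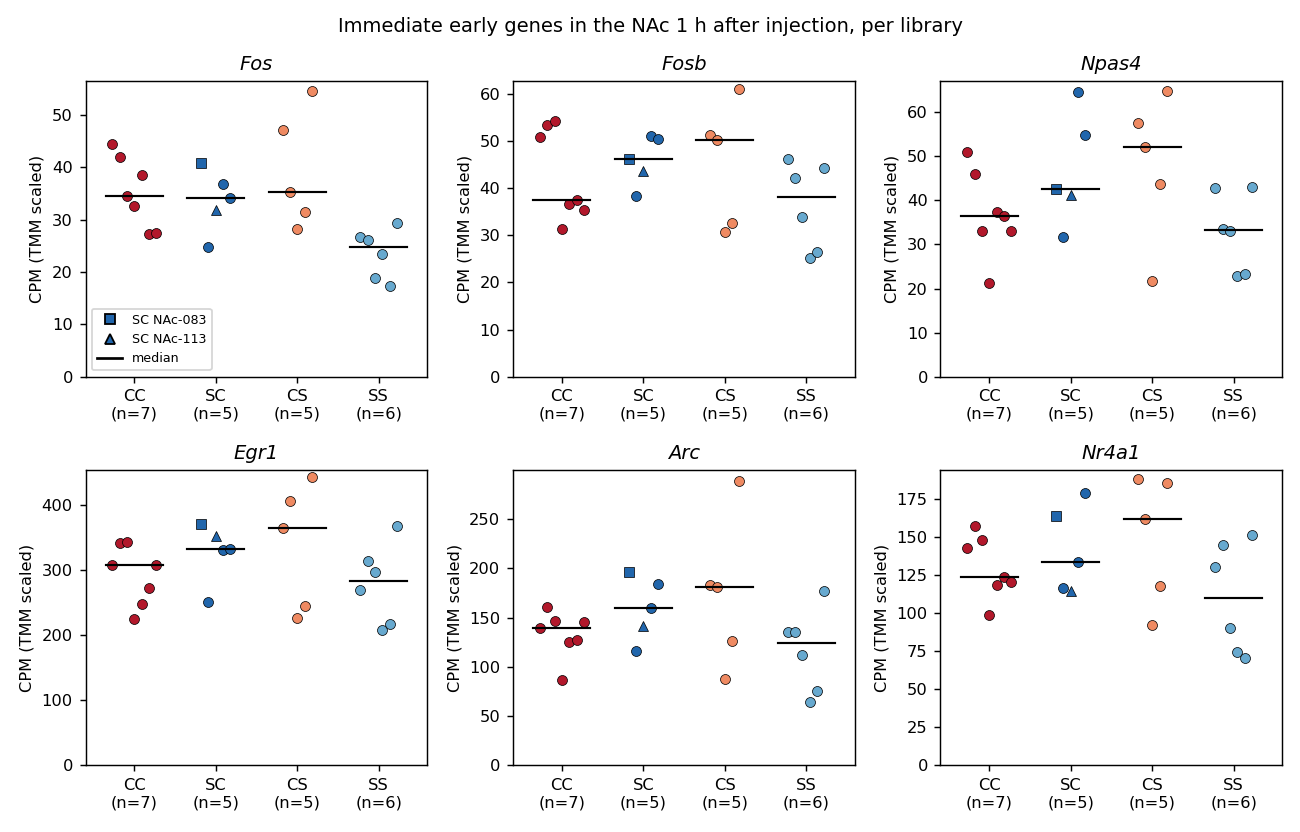
TMM-scaled CPM of 6 immediate early and effector genes in each NAc library 1 h after injection (points are libraries, lines are medians, groups CC, SC, CS and SS). The CC and SC points overlap in all 6 panels, and the SS points include the lowest Fos values, 17.2 to 29.3 CPM.

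A score per library, the mean over a list of log2 CPM centred on the 39 NAc libraries, showed where the injected groups lay relative to the animals taken without an injection. For the immediate early factors the score ran from 0.02 to 0.55 in CC, 0.14 to 0.58 in SC, -0.08 to 0.91 in CS and -0.37 to 0.38 in SS. In the groups at 24 h it ran from -0.75 to 0.15 in C24 and from -0.79 to 0.01 in S24. All CC and SC libraries therefore scored above the S24 libraries and above the C24 median of -0.42. The time of withdrawal and the injection both differ between these sets of groups, and their parts cannot be told apart.

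The interaction asked whether the difference between histories depended on what was injected. It was called for 0 of 16935 genes (0% of genes) in edgeR, with 503 genes at an unadjusted p under 0.05, and DESeq2 and limma voom also called 0. Members of the immediate early list had a median interaction of -0.42, against -0.0028 for all genes. Npas4 had -0.88 (SE 0.35), Arc -0.84 (SE 0.43), Nr4a1 -0.56 (SE 0.35) and Fosb -0.41 (SE 0.26), each with an adjusted p of 0.999. Within the CS group the values were wide: Arc had 289 CPM in NAc-151 and 88.1 CPM in NAc-091, against 63.8 to 177 CPM in SS. NAc-151 also had the highest cortical marker sum of the injected libraries, 408 unscaled CPM, and the part of that in the interaction was not tested. Across all tested genes the log2 fold changes of CC against SC and of CS against SS had a Spearman correlation of 0.149, and 0.252 above 10 CPM. These 2 contrasts share no library, but genes are not independent replicates and no p is given.

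Genes that define the projection neurons differed little. Drd1 had 179 to 291 CPM in CC and 213 to 304 CPM in SC (log2 fold change -0.07, SE 0.13, adjusted p = 0.921). Drd2 had 82.6 to 143.2 CPM in CC and 112 to 136 CPM in SC (-0.11, SE 0.15, adjusted p = 0.894), and in both genes the lowest library was CC NAc-074. Pdyn had 257 to 391 CPM in CC and 318 to 398 CPM in SC (-0.15, SE 0.14), and Tac1 had 188 to 362 CPM in CC and 211 to 391 CPM in SC (-0.15, SE 0.20). Penk had 1005 to 1762 CPM in CC and 1386 to 1866 CPM in SC (-0.09, SE 0.16). The 8 direct pathway markers had a median of -0.06, which was 0.0026 without NAc-083 and NAc-113 and -0.092 after a GC correction. The 7 tested indirect pathway markers had only negative values, with a median of -0.07. The latter was -0.034 without NAc-161, -0.019 after a GC correction and -0.11 without NAc-083 and NAc-113. None of these markers reached an unadjusted p under 0.05.

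Of the signalling genes enriched in the striatum none passed. Rgs9, a regulator that shortens dopamine receptor signalling, had 241 to 459 CPM in CC with a median of 390, and 550, 545, 511, 485 and 390 CPM in SC. It was the one member of 20 at an unadjusted p under 0.05 (log2 fold change -0.41, SE 0.15, adjusted p = 0.642), near the 3.73% of all genes that were lower at that level. Pde10a, the phosphodiesterase of projection neurons, had 622 to 1147 CPM in CC and 786 to 1473 CPM in SC (-0.38, SE 0.19, adjusted p = 0.675). Ppp1r1b, which encodes DARPP-32, the phosphoprotein that integrates dopamine signals, had 664 to 1256 CPM in CC and 1046 to 1432 CPM in SC (-0.17, SE 0.18). Of the 20 members 16 values were negative, with a median of -0.10. The median was -0.046 without NAc-161 and -0.14 without NAc-083. CC NAc-074 had the lowest score of the 12 libraries, -0.46, against -0.20 to 0.22 in SC.

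Receptor genes gave values on both sides. Among the GABA-A receptor subunits 3 of 12 were higher in CC at an unadjusted p under 0.05, against 3.61% of all genes, and 0 passed. Gabrg1, a gamma subunit found in few brain areas, had 50.5 to 108 CPM in CC with a median of 69.1, and 55.8, 52.7, 47.7, 45.2 and 40.7 CPM in SC (log2 fold change 0.60, SE 0.24, adjusted p = 0.652). Gabra5, an extrasynaptic alpha subunit, had 43.1 to 54.3 CPM in CC and 34.9 to 47.8 CPM in SC (0.25, SE 0.11). The median of the 12 was 0.13, with 0.03 after a correction for GC content and 0.22 without NAc-083 and NAc-113. Among 16 AMPA and NMDA receptor genes 3 were lower at an unadjusted p under 0.05, against 3.73% of all genes. Of the 16 values 6 were positive and 10 negative, with a median of -0.03. That median was 0.0042 after a correction for GC content and -0.074 without NAc-083 and NAc-113. Grin2c, an NMDA receptor subunit, had 36.7 to 57.6 CPM in CC and 51.4 to 62.9 CPM in SC (-0.34, SE 0.12, adjusted p = 0.642), and Grin1, the obligatory subunit, had 261 to 314 CPM in CC and 301 to 392 CPM in SC (-0.20, SE 0.09, adjusted p = 0.675). The dopamine receptors had only negative values, with a median of -0.09 over 4 tested genes. The opioid peptides and receptors had one of -0.11 over 8, which was -0.063 without NAc-161 and -0.15 without NAc-083.

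GC content moved with this contrast, and its part in the gene groups was not tested beyond the corrected values given. The log2 fold change of CC against SC had a Spearman correlation of -0.365 across genes with the GC content of the longest transcript, against -0.0079 for CS against SS. With the length of that transcript it was 0.0052 for CC against SC and -0.298 for CS against SS. CS NAc-014 had the largest median deviation from the NAc mean, 0.346 on the log2 scale, and its deviation had a correlation of -0.484 with length. The part of transcript length in CS against SS and in the interaction was not tested. In the quartile of lowest GC content, 28.7 to 44.8%, 378 genes were higher and 33 lower in CC at an unadjusted p under 0.05, and in the quartile above 54.4% 19 were higher and 311 lower. Each library's deviation from the NAc mean correlated with GC content between -0.376 and 0.108 in CC and between -0.332 and 0.598 in SC, where NAc-105 (0.598) and NAc-161 (0.367) were highest. After a smooth GC trend was removed per library the relation was 0.011, the same 2 genes were called and 1081 genes had an unadjusted p under 0.05. Of the original 1244 such genes, 755 stayed under 0.05 with the same sign.

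**Figure D3:**
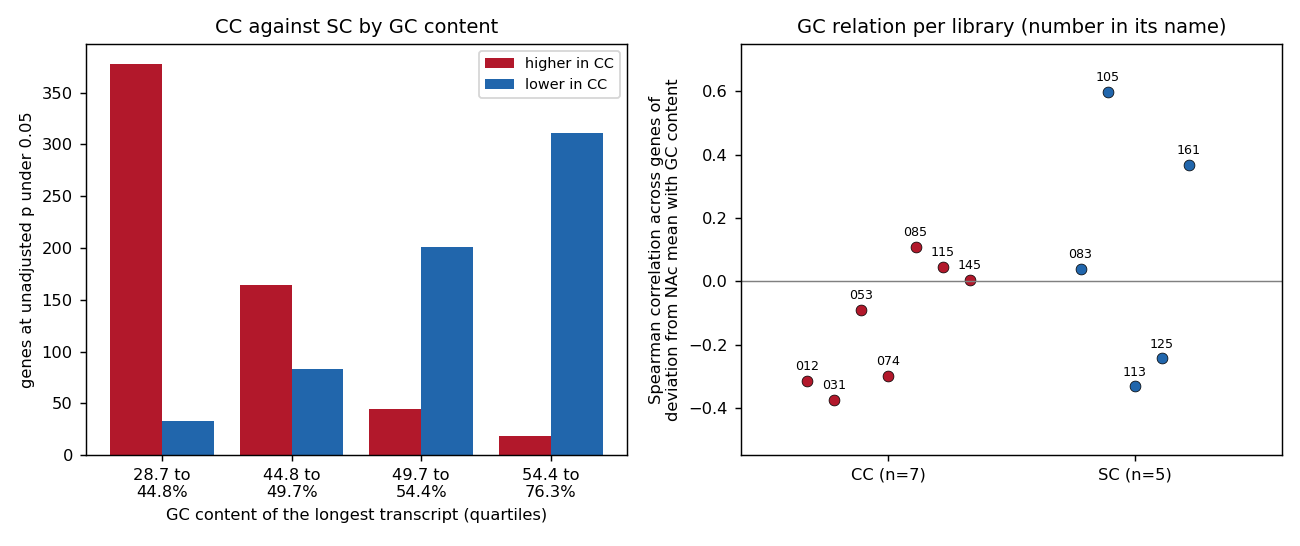
Left, number of genes at an unadjusted p under 0.05 that were higher or lower in CC than in SC, by quartile of the GC content of the longest transcript. Right, Spearman correlation across genes of each library's deviation from the NAc mean with GC content, for CC and SC; NAc-105 and NAc-161 have the highest values, 0.598 and 0.367.

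The protein-coding genes of smallest p, none of which passed, followed the same division. The 13 genes with a positive value had transcripts of 39.7 to 48.1% GC and the 5 with a negative value had 55.6 to 63.1%. Rfk, riboflavin kinase, had 52.3 to 65.1 CPM in CC with a median of 57.1, and 49.99, 48.2, 47.8, 47.5 and 41.4 CPM in SC (log2 fold change 0.31, SE 0.07, adjusted p = 0.467). All CC libraries lay above all SC libraries, and CS (50.9 to 61.3 CPM) and SS (46.5 to 65.1 CPM) overlapped (0.06, SE 0.08). Dot1l, the methyltransferase of histone H3 lysine 79, had 89.0 to 130.3 CPM in CC with a median of 108, and 171.3, 153, 138, 134 and 129.6 CPM in SC (-0.44, SE 0.10, adjusted p = 0.467). One CC library, NAc-012, overlapped with the lowest SC library. Dpysl2, which encodes the axon guidance protein CRMP2, had 170 to 264 CPM in CC and 129 to 190.9 CPM in SC (0.42, SE 0.10, adjusted p = 0.585).

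Rps6ka6, a ribosomal S6 kinase, had 11.2 to 17.8 CPM in CC and 7.27 to 10.8 CPM in SC, without overlap (0.63, SE 0.17, adjusted p = 0.619). Pgrmc1, a haem-binding membrane protein, had 316 to 381 CPM in CC and 266 to 295 CPM in SC, also without overlap (0.32, SE 0.08, adjusted p = 0.619). Plscr4, a phospholipid scramblase, had 3.79 to 5.43 CPM in CC and 2.47 to 3.45 CPM in SC (0.64, SE 0.17). Ryr1, a calcium release channel, had 43.2 to 85.6 CPM in CC and 84.8 to 112 CPM in SC (-0.52, SE 0.14), and Mbd6, a methyl-CpG-binding domain protein, had 40.01 to 66.1 CPM in CC and 59.1 to 89.4 CPM in SC (-0.48, SE 0.12). Each of these 18 genes kept its sign in every one of the 23 alternatives. The alternatives refit the libraries in which the genes were picked, so the kept signs are no separate support. None was called in any alternative, and the lowest adjusted p, shared by Rfk, Zfp961, Rps6ka6 and Rsl24d1, was 0.0579. In CS against SS the values of the 18 genes ran from -0.19 for Ryr1 to 0.19 for Rsl24d1, a ribosome assembly factor. The genes were picked by their p in CC against SC, which favours large values there. The sizes in the 2 history contrasts therefore cannot be compared.

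**Figure D4:**
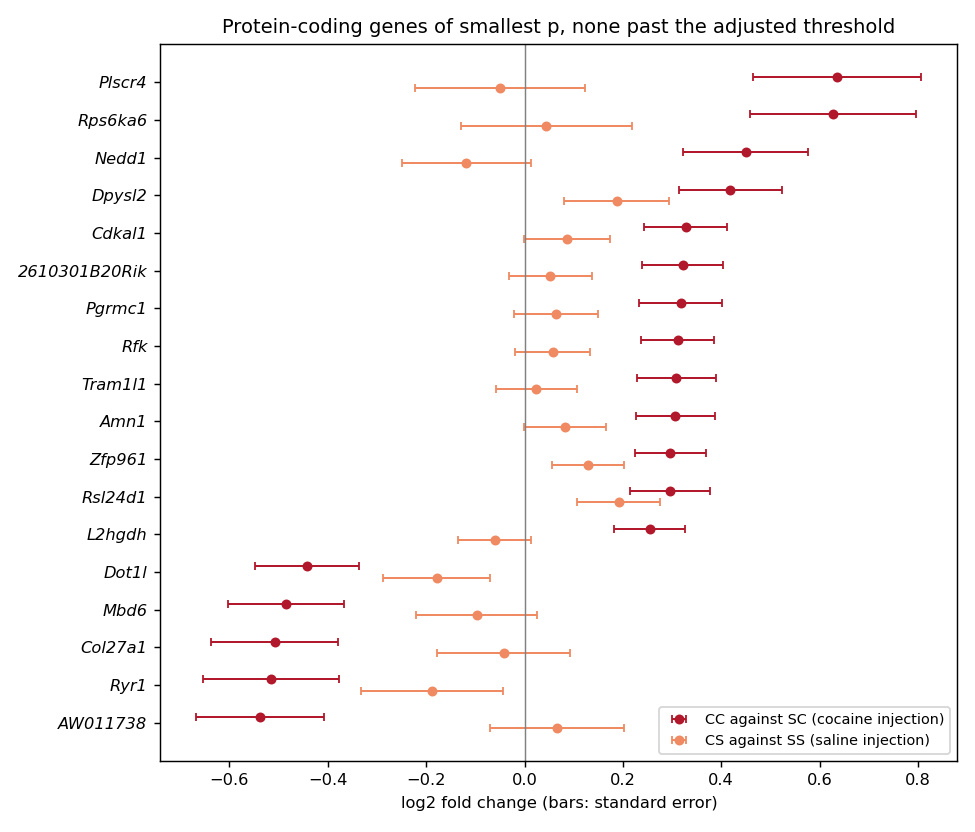
Log2 fold change and standard error of the 18 protein-coding genes of smallest p that did not pass, for CC against SC and for CS against SS. The CC against SC values run from -0.54 to 0.64 and the CS against SS values from -0.19 to 0.19. The genes were picked by their p in CC against SC, which favours large values there.

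Chaperone genes had mostly positive values in both history contrasts, and none passed. Among 30 heat shock and protein folding genes 29 values were positive in CC against SC, with a median of 0.20, and 6 were higher and 1 lower at an unadjusted p under 0.05, against 3.61% and 3.73% of all genes. Cacybp, a co-chaperone of the Hsp90 system, had 67.9 to 88.9 CPM in CC and 80.0, 73.6, 66.9, 64.2 and 44.6 CPM in SC (log2 fold change 0.30, SE 0.11, adjusted p = 0.642). Hspd1, the mitochondrial chaperonin, had 181.6 to 219.9 CPM in CC and 126 to 198 CPM in SC (0.21, SE 0.08, adjusted p = 0.652). SC NAc-161 was lowest in both genes and had a list score of -0.43, against -0.04 to 0.77 in CC. The CC against SC median of the list was 0.08 without NAc-161 and 0.06 without NAc-105 and NAc-161. It was 0.30 without NAc-083 and NAc-113. In CS against SS all 30 values were positive with a median of 0.21. In the libraries at 24 h, without an injection, the score ran from -0.60 to -0.42 in C24 and from -0.62 to -0.16 in S24.

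Of the 8 blood transcripts 5 were higher in CC at an unadjusted p under 0.05, against 3.61% of all genes, and 0 passed. Hba-a1, a haemoglobin gene, had 9.29 to 135 CPM in CC with a median of 21.1, and 21.2, 19.9, 15.7, 13.2 and 0.707 CPM in SC (log2 fold change 1.35, SE 0.61, adjusted p = 0.675). CC NAc-012 was high and SC NAc-161 was low, and the other libraries overlapped. The list median was 1.27, and 0.98 without NAc-161. Without NAc-012 the fold change of Hba-a1 was 0.46, with 0.50 for Hbb-bs, another haemoglobin gene (1.39 with all libraries), and 0.43 for Alas2, an enzyme of haem synthesis (1.26 with all libraries). Of the 10 neuron markers 2 were lower at an unadjusted p under 0.05, against 3.73% of all genes, and 0 passed. Nefm, a neurofilament gene of that list, had -0.67, and 0.032 without NAc-083 and NAc-113. Astrocyte (-0.03), oligodendrocyte (-0.04), oligodendrocyte precursor (0.02), microglia (0.0038), endothelium and pericyte (-0.03), neuron (0.01) and interneuron (-0.03) medians lay near that of all genes. So did the medians of the 42 nuclear-encoded oxidative phosphorylation genes (9.01e-05), the circadian clock (-0.0025), retinoid signalling (-0.02), glucocorticoid-responsive genes (-0.04), metabotropic glutamate receptors (-0.06) and histone deacetylases and DNA methylation enzymes (-0.07). The interferon-induced genes had 20 of 25 positive values with a median of 0.09, and 0 of 25 at an unadjusted p under 0.05. The leptomeningeal (0.09), hypothalamic and septal (0.03) and choroid plexus (0.29) medians rested on 10, 8 and 9 tested members. Of the 9 choroid plexus values 8 were positive. The other, Ttr, had -1.86 (-0.76 without NAc-105) and was the only member at an unadjusted p under 0.05. The 4 tested midbrain markers had a median of -0.36, which was 0.16 without NAc-083. Slc6a3 was the only list member past the test.

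**Figure D5:**
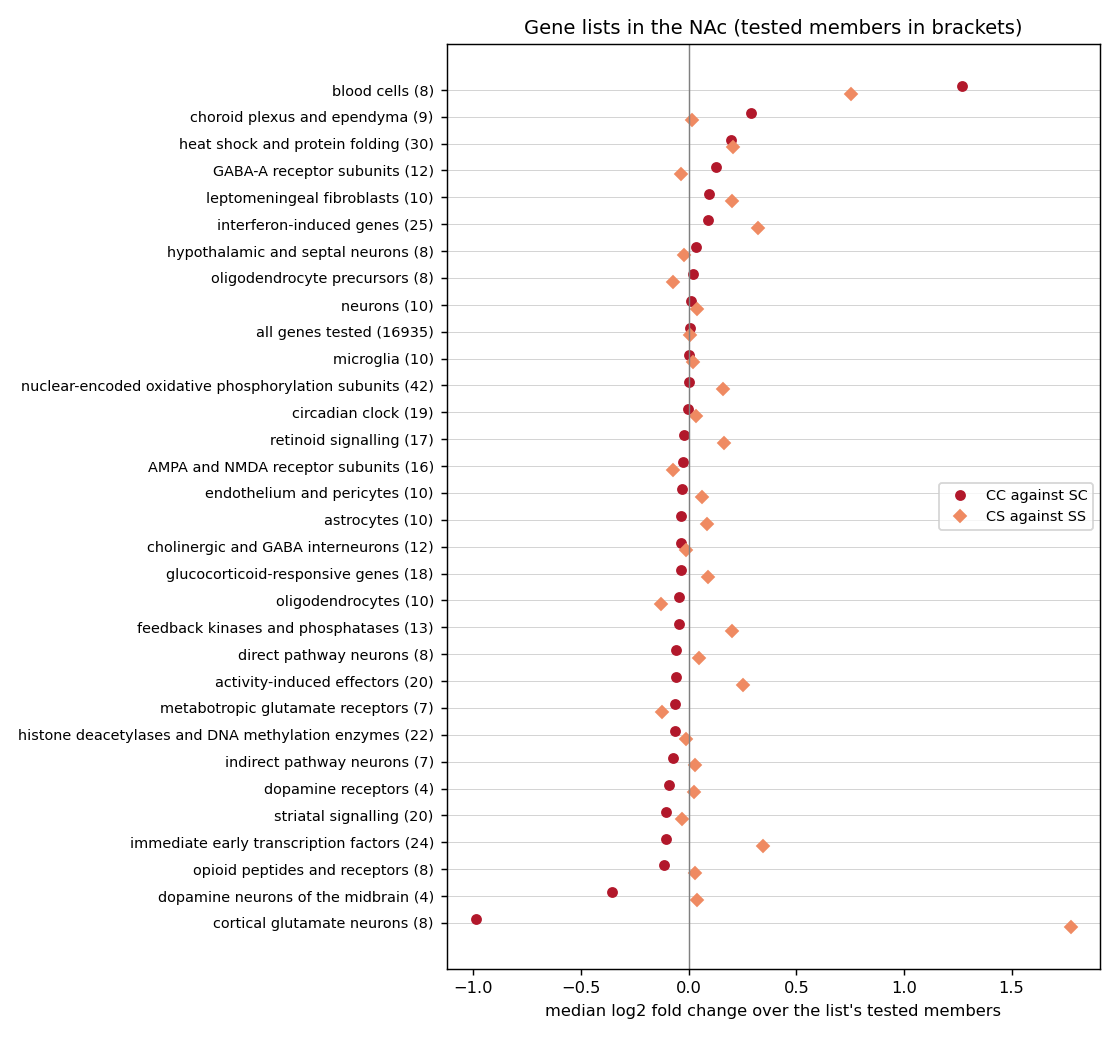
Median log2 fold change over the tested members of each gene list, for CC against SC and for CS against SS in the NAc; the row of all tested genes lies at 0.0041 and 0.0062. Most CC against SC medians lie within 0.2 of 0, and the immediate early factors lie at -0.11 and at 0.35.

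The contrast was then set against the dorsal striatum (CPu, 7 CC and 6 SC libraries) and the prefrontal cortex (PFC, 7 CC and 7 SC libraries) in a limma voom fit of all libraries of the 3 regions and 17760 genes. The difference between the NAc and the CPu was called for 0 genes (0%, 377 at an unadjusted p under 0.05), and that between the NAc and the PFC for 0 genes (0%, 1255 at an unadjusted p under 0.05). No gene was called in the NAc, the CPu or the PFC alone in this fit, with 2030, 322 and 437 genes at an unadjusted p under 0.05. Fos had log2 fold changes of 0.06 (SE 0.24) in the NAc, 0.14 (SE 0.23) in the CPu and 0.20 (SE 0.21) in the PFC, and Arc had -0.27 (SE 0.32), 0.10 (SE 0.30) and 0.24 (SE 0.29). For Dot1l the values were -0.45 (SE 0.14) in the NAc, -0.24 (SE 0.13) in the CPu and 0.16 (SE 0.13) in the PFC, with a NAc minus PFC difference of -0.61 (SE 0.19, adjusted p = 0.536). Dot1l was named for its p in CC against SC in the NAc, which favours a large value there. Its sizes in the 3 regions therefore cannot be compared, and this fit held no GC correction. The median of the immediate early factors was -0.12 in the NAc, 0.06 in the CPu and 0.12 in the PFC, and that of the heat shock genes was 0.20, 0.09 and 0.07.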

How the data were processed

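RNA was sequenced in 39 NAc libraries, 12 of them in CC and SC, with the CPu and PFC used for comparison. The labels' protocols name Trizol and column extraction with a DNase step, and the ScriptSeq Complete Gold kit, which removes ribosomal RNA, while the molecule field of the labels reads polyA RNA. The deposited values are raw counts per Ensembl gene (43346 genes, of which 42462 had a symbol in GENCODE M21). Per the submitters' processing notes HTSeq, limma and the build mm10 were used, and the aligner, annotation release and strand setting are not given in the sources used here, so overlapping and antisense genes may share reads. Poly(A) selection, depletion and extraction can shift values by transcript length and GC content, which the counts do not correct.

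Genes were kept with filterByExpr (minimum count 10, minimum total 15), libraries were scaled by TMM, and all 39 NAc libraries in 6 groups were fitted with edgeR 4.0.16 (robust quasi-likelihood F test, 2-sided, in R 4.3.3), with Benjamini-Hochberg adjustment over all tested genes and a threshold of 0.05. Regions were compared with limma 3.58.1 on voom weights. Alternatives used DESeq2 1.42.0, voom, DESeq2 size factors, no filter, the 12 libraries alone, 2 surrogate variables (sva 3.50.0), the removal of libraries and, added after the data were seen, a lowess correction for GC content (span 0.3) and the removal of NAc-053 and of NAc-105 with NAc-161. GC content was known for 99.3% of tested genes. Titles in different regions share numbers, and the labels do not state whether a number marks 1 mouse, so it was used as a block only in an alternative fit. Each p-value sets a difference between groups against the spread between libraries within groups, which is estimated over all groups of the fit. The fits were also run on simulated negative binomial counts with known changes in CC. No simulated library had single genes set far above the rest, so that run cannot speak to the 2 called genes.

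The members, the 31 gene lists and the tests were chosen with earlier results of these data known. Named genes were the called genes, the protein-coding genes of smallest p up to 20 in all, the 3 genes of smallest p in each list, and fixed activity and striatal genes, plus Gm20594, Gm11410 and Atp5j2 as checks of the libraries.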

Additional observations from a re-analysis of the deposited data

Results flagged for a closer look

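The named genes were given 244 checks, 1 per gene in CC and 1 in SC. In 24 groups a library lay farther from its neighbour than Dixon's 95% limit allows. Chance flags about 1 in 20 groups where values are independent and normally distributed. Some of these genes vary together and some were named for their values in these libraries. An excess over chance therefore cannot be read from the count. Values are in CPM, with the range of the other libraries of the group after each.

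In the SC group NAc-083 stood apart in 5 genes: Slc6a3 (62.9 against 0.347 to 0.848), Th (36.0 against 11.3 to 16.003), Slc18a2 (27.8 against 3.20 to 6.74), Aldh1a1, a retinaldehyde dehydrogenase (42.2 against 8.66 to 17.2), and Col27a1, a collagen (10.3 against 13.8 to 15.1). NAc-105 was high in Ttr, a choroid plexus transcript (10.6 against 0.636 to 2.93), in Lhx8, a factor of cholinergic neurons (18.8 against 8.58 to 9.21), and in Cyp26b1, which degrades retinoic acid (5.19 against 1.30 to 2.08). NAc-161 was low in Rfk (41.4 against 47.5 to 49.99) and high in Egr3 (90.2 against 68.3 to 73.6), and NAc-125 was high in Rsl24d1 (26.7 against 23.0 to 23.4).

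In the CC group NAc-053 stood apart in 5 genes: Gm11410 (0.996 against 0 to 0.386), Cdkal1 (16.4 against 11.2 to 13.3), Pim1 (5.70 against 2.47 to 3.04), Oasl2 (4.66 against 1.85 to 2.72) and Mobp (638 against 868 to 958). NAc-012 was high in the blood genes Alas2 (14.9 against 1.19 to 4.02), Hbb-bs (245 against 19.0 to 56.0) and Hba-a1 (135 against 9.29 to 28.8). NAc-074 was low in Adora2a (150.7 against 220 to 270) and high in Trpc4 (16.7 against 5.36 to 9.51). NAc-145 was high in Neurod2 (2.59 against 0.200 to 0.934) and Aif1 (6.78 against 5.21 to 5.67), and NAc-115 was high in Lcn2 (59.5 against 11.9 to 23.8).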

How the results depend on the processing

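The count of genes higher in CC stayed at 0 in all 23 alternatives run. The count of genes lower, 2, was 0 with limma voom, no filter, the 12 libraries only, 2 surrogate variables or without the libraries with Gm20594 above 1 CPM, and 1 with DESeq2, without NAc-083, without NAc-113 or without NAc-053. With the 12 libraries only, Gm11410 was not among the genes tested and Slc6a3 had an adjusted p of 0.6. DESeq2 gave Slc6a3 a log2 fold change of -4.57 and no adjusted p. Leaving out each CC or SC library gave 0 to 2, with 0 when any CC library other than NAc-053 was left out and 706 to 1568 genes at an unadjusted p under 0.05. The libraries with Gm20594 above 1 CPM are NAc-083 and NAc-113, so leaving out NAc-083 as well was the same fit. The interaction, CS against SS and both differences between regions stayed at 0 in every alternative. With the library number as a replicate block, the NAc minus CPu and NAc minus PFC counts were 0 and 0, with 417 and 1352 genes at an unadjusted p under 0.05; of 23 same-numbered pairs of NAc and other libraries 9 had a correlation of deviations above 0.1 (median 0.055), against 25 of 140 pairs with different numbers (median -0.015). The labels do not state that a number marks 1 mouse, and the block changed no count of calls.

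Named genes that turned sign against their main log2 fold change, none of them called there, were as follows; the cause was not tested. Without the libraries with Gm20594 above 1 CPM: Gm11410 0.82, Nrn1 0.61, Aldh1a1 0.13, Vip 0.48, Nefm 0.032, Bcas1 0.021, Slc18a2 0.79, Slc17a7 0.26, Neurod2 0.36, Tbr1 0.54, Bdnf 0.84 and Tac1 0.039. Without NAc-083: Vip 0.058, Th 0.0077, Slc18a2 0.63 and Junb 0.023. With the GC correction: Sfxn1 -0.013, Cspg4 0.00032, P2ry12 -0.028, Slco1a4 -0.0079 and Junb 0.092. Without NAc-105 and NAc-161: Hdac6 0.00099, Cspg4 0.085, P2ry12 -0.063, Fos -0.052, Junb 0.15 and Adora2a 0.0050. With limma voom Iigp1 was -0.18, Slc18a2 0.14 and Junb 0.012, and with 2 surrogate variables Junb was 0.042. Leaving out single libraries gave ranges that crossed 0 for Vip (-0.77 to 0.058), Cspg4 (-0.15 to 0.0041), Th (-0.55 to 0.0077), Slc18a2 (-0.53 to 0.63), Fos (-0.033 to 0.14), Junb (-0.14 to 0.15) and Adora2a (-0.13 to 0.0090).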
